A study of Mus musculus with 6 samples.

Results

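The microRNAs miR-187, miR-345 and miR-701 are described here across 6 small RNA libraries of mouse sensorimotor cortex. They were chosen from the measured values. Reads of 18 to 26 nt were placed without mismatch in annotated miRNA hairpins. Autosomal single-copy hairpins were kept where reads of 1 arm were higher in every library after spinal cord injury (SCI) than in every control library. In the counts here and below, single-copy means that an arm was not merged with another hairpin's arm for sharing reads. Of 378 such autosomal hairpins with a tested arm, 51 met the condition of higher reads, and these 3 hairpins are among them. The difference between SCI and control is therefore how they were chosen, and it is given below as a description with no test.

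All mice were male C57BL/6J animals at postnatal day 90. In the SCI group (3 libraries) the whole cord was cut through at cervical level C5/6. In the control group (3 libraries), which the labels also call WT, the cord was laid bare and left undamaged. Cortex was taken 7 days after surgery in both groups, and tissue was collected from each animal separately, per the labels. The cut was made in the cord, not in the cortex, and the whole dissected region was lysed, so fewer cells of a type and less RNA per cell cannot be told apart.

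A miRNA gene is transcribed as a long precursor, from which the nuclear enzyme Drosha cuts a hairpin and the cytoplasmic enzyme Dicer then cuts a short duplex. One strand of the duplex, from the 5p or the 3p arm of the hairpin, is held by an Argonaute protein and pairs with messenger RNAs mainly through its seed, bases 2 to 8 from its 5′ end. Which base a miRNA starts at therefore sets its seed. Its 3′ end can be trimmed, or it can be extended by terminal nucleotidyl transferases, which add U or A. miR-187-3p is known as a miRNA induced by the anti-inflammatory cytokine IL-10 in myeloid cells.

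The 3 genes lie on different chromosomes of GRCm38, as annotated in GENCODE M21. Mir187 lies between genes and the other 2 inside a protein-coding gene. Mir345 (ENSMUSG00000065429.1, plus strand) occupies chr12:108836973-108837068, inside Slc25a47, a mitochondrial carrier gene on the same strand. All of it is intronic except its last 5 bases, which overlap an annotated exon. Mir701 (ENSMUSG00000076163.1, plus strand) occupies chr5:111004144-111004252, in an intron of Ttc28 on the same strand.

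The sequences of miR-345 and miR-701 are shown because the reads of miR-345 start at another base than the reference, which changes the seed. The lines give the most abundant read of each arm over the 6 libraries, with the seed in capitals, beside the RefSeq mature sequence (GRCm38 coordinates from the match to the hairpin).
miR-345-5p, most abundant read: tGCTGACCcctagtccagtgct
miR-345-5p, RefSeq mature: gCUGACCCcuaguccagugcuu
miR-345-3p, most abundant read: cCCTGAACtaggggtctggag
miR-345-3p, RefSeq mature: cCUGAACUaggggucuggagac
miR-701-5p, most abundant read: tTAGCCGCtgaaatagatgga
miR-701-5p, RefSeq mature: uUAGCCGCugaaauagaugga
miR-701-3p, most abundant read: tATCTATTaaagaggctagc
miR-701-3p, RefSeq mature: uAUCUAUUaaagaggcuagc

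In the hairpins below, capitals mark the most abundant read of the 5p arm and of the 3p arm, so that the 2 strands of each duplex can be seen in place.
Mir345 hairpin: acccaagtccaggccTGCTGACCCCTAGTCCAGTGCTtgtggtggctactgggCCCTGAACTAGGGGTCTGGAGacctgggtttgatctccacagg
Mir701 hairpin: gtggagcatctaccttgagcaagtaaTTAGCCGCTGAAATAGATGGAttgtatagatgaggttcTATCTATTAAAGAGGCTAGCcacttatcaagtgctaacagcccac

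Both arms of miR-345 were read mainly 1 base upstream of the RefSeq start. The upstream start held 69.8% of exact miR-345-5p reads and 72.4% of exact miR-345-3p reads. Of 549 arms of single-copy hairpins with a RefSeq mature sequence, 493 (89.8%) had the RefSeq start as their most abundant one and 18 (3.28%) started 1 base upstream. The seeds GCTGACC and CCTGAAC of the shifted reads were the seed of 0 mature miRNAs in the RefSeq table, and the seeds CUGACCC and CUGAACU of the annotated forms were held by miR-345-5p and miR-345-3p alone. The annotated start was the next most abundant start of each arm. Its commonest exact read was gCTGACCCctagtccagtgct with 2939 reads for the 5p arm and cCTGAACTaggggtctggaga with 243 reads for the 3p arm. miR-701-5p, in contrast, had the RefSeq start in 96.4% of its reads, and its seed was held by no other mature sequence in the table. No other tested arm shared a seed with any of the arms shown.

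The hairpins differed in composition and predicted fold. G and C made up 63.9% of Mir187 (61 nt), 60.4% of Mir345 (96 nt) and 42.2% of Mir701 (109 nt), beside a median of 50.9% over all annotated miRNA hairpins. The predicted minimum free energy per base was -0.464 kcal/mol for Mir187, -0.488 for Mir345 and -0.311 for Mir701, beside a median of -0.408. Mir345 was thus more stable per base than 81.9% of hairpins and Mir701 more stable than 14.4%, so the chosen hairpins share neither property. Mir187 (ENSMUSG00000065532.1, minus strand) lies on chromosome 18 between genes, 41.7 kb from the nearest protein-coding gene, 2700062C07Rik.

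The libraries held 10585062 to 24480988 reads, of which 72.9% to 78.9% lay in miRNA arms. Levels are CPM, the count of an arm over its library's arm reads, scaled by the trimmed mean of M-values (TMM). Reads carry no molecular identifiers, so every interval on a share below covers counting error only. Control 1 was the outermost library on the first principal component (39.5% of variance), at -8.18. Control 2 and 3 were at -1.35 and -0.80 and the SCI libraries at 2.24 to 4.81, so the groups did not overlap on it. Mitochondrial tRNA fragments made up 0.367% to 0.627% of reads in control libraries and 0.758% to 1.02% in SCI libraries, with no overlap. The cortex label was checked on miRNAs typical of neurons (miR-124, miR-128 and miR-9), which summed to 148738 to 187189 CPM, against at most 6.72 CPM for the liver miRNA miR-122-5p.

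miR-187-3p was the main arm of its hairpin, and its SCI mean was 1.55 times its control mean, beside 1.90 times for miR-345-3p and 3.04 times for miR-701-5p. miR-187-3p was at 30.8, 28.1 and 32.4 CPM in control 1, 2 and 3, and at 50.8, 41.9 and 49.2 CPM in SCI 1, 2 and 3. These levels leave out reads that ran past the last base of the annotated hairpin, which averaged a further 22.3 CPM in control and 36.4 CPM in SCI. The groups did not overlap, and the lowest SCI library (SCI 2) was 1.29 times the highest control library. Group means were 30.5 ± 2.15 CPM in control and 47.3 ± 4.72 CPM in SCI (SD, n = 3 each), with a fitted log2 difference of 0.63 (SE 0.16).

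miR-345-3p, the less abundant strand of its duplex, was at 15.7, 11.6 and 16.4 CPM in control 1, 2 and 3 and at 30.1, 25.4 and 27.4 CPM in SCI 1, 2 and 3. Every SCI library lay above every control library, with a gap of 1.55 times between the nearest pair. Group means were 14.6 ± 2.61 and 27.6 ± 2.37 CPM (SD, n = 3 each), and the fitted log2 difference was 0.92 (SE 0.19).

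miR-701-5p was at 2.28, 1.37 and 2.41 CPM in control 1, 2 and 3 and at 6.54, 4.58 and 7.30 CPM in SCI 1, 2 and 3. These values rest on few reads, 11 to 46 per control library and 76 to 114 per SCI library. The nearest SCI and control libraries differed 1.90 times. Group means were 2.02 ± 0.568 and 6.14 ± 1.40 CPM (SD, n = 3 each), with a fitted log2 difference of 1.55 (SE 0.28).

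**Figure D1:**
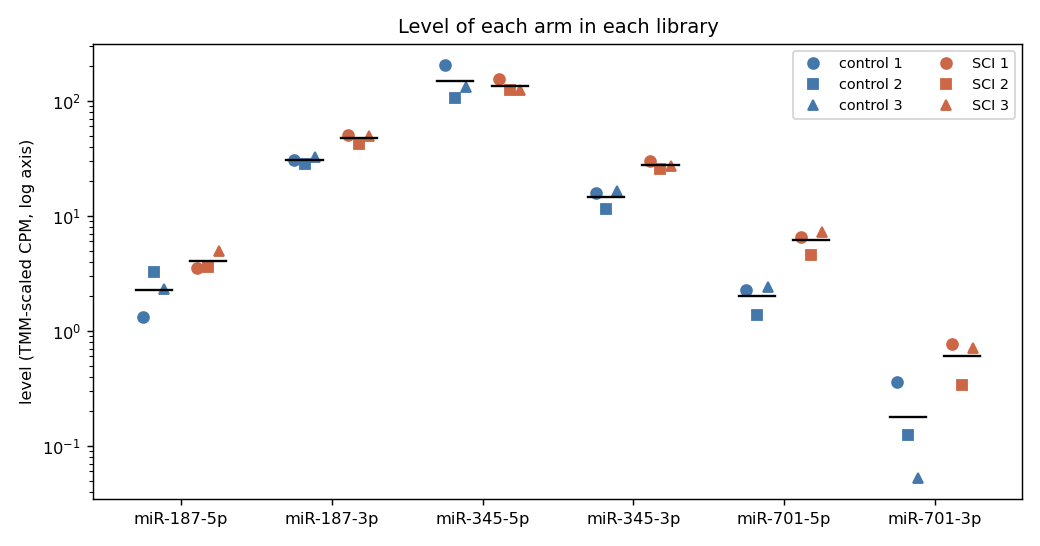
Level of each arm of Mir187, Mir345 and Mir701 in each library (CPM, log axis), with control and SCI libraries as separate points and the group mean as a line. SCI points lie above all control points for miR-187-3p, miR-187-5p, miR-345-3p and miR-701-5p, and the groups overlap for miR-345-5p and miR-701-3p.

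The 3 chosen arms have to be read against how often such a pattern occurred. Over all 690 tested arms, 62 (8.99%) were higher in every SCI library and 76 (11.0%) were lower in every SCI library. Among arms of autosomal single-copy hairpins the share was 54 of 560, or 9.64%. Among arms of like level it was 17 of 180 (9.44%) at a mean of 10 to 100 CPM and 21 of 221 (9.50%) at 1 to 10 CPM. The pattern was thus no more common upward than downward, and the chosen arms are examples of it. By size of fitted log2 difference, miR-701-5p ranked 4, miR-345-3p 20 and miR-187-3p 43 from the top of the 690 arms. The median over all tested arms was -0.02, with 332 arms above 0 and 358 below.

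The fit over all arms called few or none, depending on the method. edgeR's quasi-likelihood test called 0 of 690 arms (0.00%) at an adjusted p of 0.05, with 97 arms at an unadjusted p under 0.05, and limma-voom called 0 with 93. DESeq2 called 11 arms (1.59%), with 88 at an unadjusted p under 0.05, and miR-187-3p, miR-345-3p and miR-701-5p were all among its 11. Without the low-count filter edgeR called 30 of 1421 arms (2.11%), miR-345-3p and miR-701-5p among them. Since this contrast chose the arms, nothing is read from their presence there.

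The condition for choosing has an edge that passes through nearly equal values. Of arms with a mean of at least 10 CPM, miR-412-5p lay just inside, with its lowest SCI library at 63.7 CPM and its highest control library at 63.3 CPM. miR-151-5p lay just outside, at 2871 CPM against 2873 CPM.

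**Figure D2:**
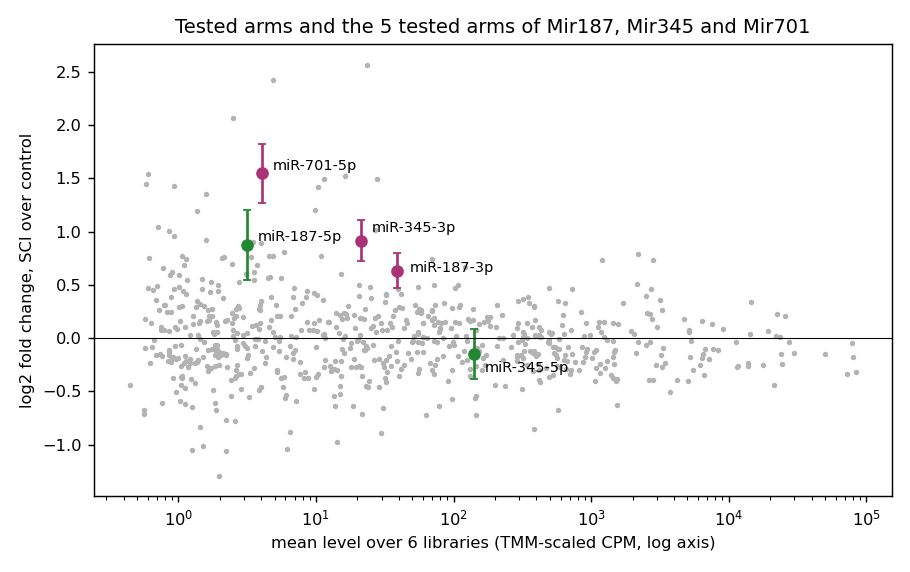
Fitted log2 difference, SCI over control (vertical axis), against mean level (CPM, log axis) for the 690 tested arms in grey. The 5 tested arms of the 3 hairpins are labelled, with bars showing their SE. Purple marks the arm of each hairpin with the highest ratio of lowest SCI to highest control level, and green its partner. The green miR-187-5p was also higher in every SCI library. miR-701-5p, miR-345-3p, miR-187-5p and miR-187-3p lie in the upper part of the cloud, and miR-345-5p at -0.15 lies near its middle.

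The partner arms differed from each other. miR-345-5p, the major strand, was at 206.6, 106.6 and 133.2 CPM in control 1, 2 and 3 and at 153.5, 125.3 and 124.5 CPM in SCI 1, 2 and 3. The groups overlapped, control 1 was the highest library of all and control 2 the lowest. The fitted log2 difference was -0.15 (SE 0.24), and it turned to 0.16 without control 1 and to -0.34 without control 2.

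miR-187-5p, the minor strand, was at 1.32, 3.24 and 2.31 CPM in control 1, 2 and 3 and at 3.53, 3.57 and 4.997 CPM in SCI 1, 2 and 3. The groups did not overlap, by a margin of 1.09 times, on 22 to 78 reads per library. Its fitted log2 difference was 0.87 (SE 0.33), and 0.58 without control 1. miR-701-3p, the minor strand of its duplex, had too few reads for the fit, with 6, 1 and 1 in the control libraries and 9, 6 and 11 in the SCI libraries. SCI 2 at 0.340 CPM lay below control 1 at 0.361 CPM, so the groups overlapped. Pooled over libraries, its scaled SCI level was 3.17 times the control level (95% counting interval 1.39 to 8.09), which leaves out the spread between animals.

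By exact reads, miR-345-5p was the most abundant of the 6 arms, ranking 217 of 690 by mean level, followed by miR-187-3p (307) and miR-345-3p (359). miR-701-5p (478) and miR-187-5p (504) were close, and their control means of 2.02 and 2.29 CPM differed by less than the spread of either. All arms give reads of about the same length, so these CPM values were compared without length scaling.

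Because the arms of Mir345 differed, its strand balance differed between the groups. Of exact Mir345 reads, the 3p arm held 7.06%, 9.80% and 11.0% in control 1, 2 and 3. In SCI 1, 2 and 3 it held 16.4%, 16.9% and 18.02%. Reads with added 3′ bases, described further on, were left out of these shares and of the ratios below. They were 47.2% of miR-345-3p reads but 10.8% of miR-345-5p reads, so the part of the 3p arm is understated in both groups. The counting error of a share is given by its Wilson 95% interval, 9.87% to 12.2% for the highest control library and 14.9% to 18.03% for the lowest SCI library, and leaves out the spread between animals. Expressed as a ratio, 5p reads outnumbered 3p reads 13.2, 9.20 and 8.12 times in control 1, 2 and 3, and 5.10, 4.93 and 4.55 times in SCI 1, 2 and 3. Of 207 hairpins with both arms tested, 21 (10.1%) had a higher minor arm share in every SCI library and 20 a lower one. The log2 change of the minor over the major arm was 1.07 for Mir345, rank 3 of the 207, beside a median of -0.01. As the 3p counts chose this hairpin, its shares, their lack of overlap and that rank are a description.

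Strand balance of the other hairpins overlapped between groups. Of exact Mir187 reads, the 3p arm held 95.9%, 89.7% and 93.4% in control 1, 2 and 3. In SCI 1, 2 and 3 it held 93.5%, 92.2% and 90.8%. These shares leave out 2611 miR-187-3p reads that ran past the last base of the annotated hairpin. In Mir701, where the 5p arm dominates, the 3p arm held 13.6%, 8.33% and 2.13% in the control libraries and 10.6%, 6.90% and 8.80% in the SCI libraries. The 2 arms of Mir187 thus stood higher after injury in about the same proportion, with a log2 change of the minor over the major arm of 0.18.

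**Figure D3:**
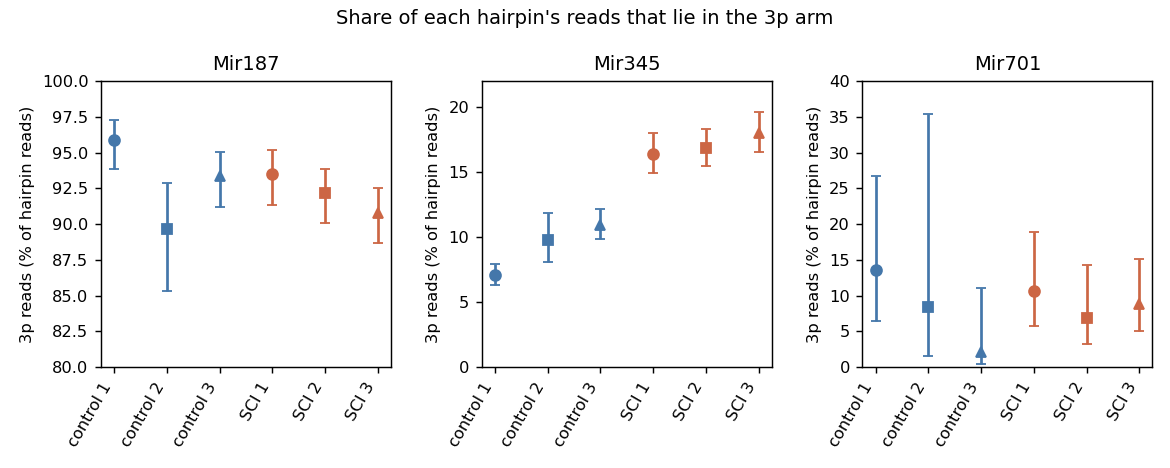
Share of each hairpin's exact reads that came from its 3p arm (percent) in each library. Bars are Wilson 95% intervals, and each hairpin has a separate vertical scale. For Mir345 the SCI libraries lie at 16.4% to 18.02%, above the control libraries at 7.06% to 11.0%, while the groups overlap for Mir187 and Mir701.

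The higher level of miR-345-3p was spread over all its main forms. Each of its 5 isoforms (a start and a 3′ end) holding at least 5% of the arm's reads was higher in every SCI library, as were 3 of 4 for miR-187-3p, 2 of 2 for miR-701-5p, 1 of 4 for miR-187-5p, 0 of 4 for miR-345-5p and 0 of 4 for miR-701-3p. Over the isoforms of all tested single-copy arms the share was 204 of 2370, or 8.61%. The isoforms are parts of the same arm counts that chose the hairpins. The most abundant miR-345-3p form, whose sequence is printed above, averaged 6.11 CPM in control and 10.6 CPM in SCI. For miR-187-3p the form ending at the last base of the annotated hairpin averaged 13.2 CPM in control and 19.4 CPM in SCI, and the form 1 base shorter 9.06 and 15.2 CPM.

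Where each arm started did not separate the groups. The upstream start of miR-345-3p held 77.0%, 75.3% and 71.2% of its reads in control 1, 2 and 3, against 70.3%, 71.0% and 73.1% in SCI 1, 2 and 3. For miR-345-5p it held 71.9%, 69.3% and 67.4% in the control libraries and 71.6%, 70.1% and 67.2% in the SCI libraries. The main start of miR-187-3p held 82.7% to 87.2% in all libraries and that of miR-701-5p 92.1% to 100%. The shifted seed of miR-345 was therefore the main one in both groups. miR-187-5p had the most mixed start, with its main one at 63.6% to 79.4% in 5 libraries and at 47.4% in SCI 3. The main 3′ end overlapped between groups as well, at 49.8%, 55.9% and 51.4% against 50.0%, 47.9% and 48.5% for miR-345-3p.

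**Figure D4:**
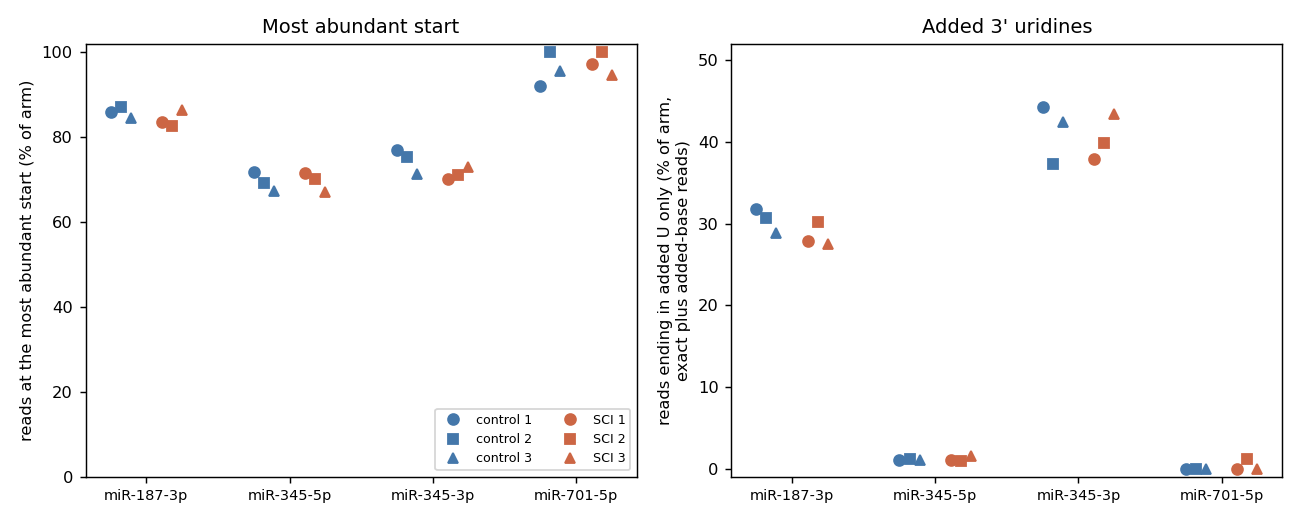
Left, share of exact reads at the most abundant start (percent of the arm), and right, share of exact plus extended reads with U alone added at the 3′ end, as described further on, for miR-187-3p, miR-345-5p, miR-345-3p and miR-701-5p. Each point is 1 library, coloured by group, and control and SCI starts overlap in every arm plotted, including miR-345-3p at 70.3% to 77.0%.

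Many reads of miR-345-3p and miR-187-3p carried bases at the 3′ end that the hairpin does not hold. These reads were left out of the counts that chose the hairpins, although they come from the same libraries. Over all libraries 47.2% of miR-345-3p reads had 1 to 3 added bases and 41.3% had U alone added, which ranked 17 of 584 arms with at least 100 reads. The commonest such read, ccctgaactaggggtctggagT (the added base in capitals, written T, where the hairpin holds A), had 999 reads and so outnumbered the most abundant exact read of the arm at 741. The medians over the 584 arms were 12.7% for any addition and 4.19% for U alone. For miR-187-3p 29.2% of reads had U alone added, rank 27. That share leaves out a further 2611 miR-187-3p reads that ran past the last base of the annotated hairpin, since bases beyond it cannot be told apart from genomic ones.

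The 5p arms differed in their added bases. U alone was added to 1.11% of miR-345-5p reads and 0.255% of miR-701-5p reads, but to 13.1% of miR-187-5p reads (rank 105 of 584). Over all 5p arms the median was 2.84%, and over all 3p arms 6.43%. miR-187-5p had A alone added in 27.6% of its reads, rank 4 of 584 for A, while miR-187-3p had A alone added in 4.71%.

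The share of reads with added U overlapped between the groups. For miR-345-3p it was 44.3%, 37.3% and 42.5% in control 1, 2 and 3, against 37.9%, 39.9% and 43.4% in SCI 1, 2 and 3. For miR-187-3p it was 31.8%, 30.7% and 28.9% in the control libraries and 27.9%, 30.2% and 27.5% in the SCI libraries. Extended and exact reads therefore stood higher after injury together. Extended miR-345-3p reads were at 16.05, 8.47 and 15.2 CPM in control 1, 2 and 3 and at 23.1, 21.1 and 27.3 CPM in SCI 1, 2 and 3, a ratio of means of 1.80. Extended miR-187-3p reads were at 24.0, 20.9 and 23.3 CPM in the control libraries and at 38.2, 33.5 and 39.0 CPM in the SCI libraries, a ratio of 1.62. Neither pair of groups overlapped. Over tested single-copy arms with at least 15 extended reads, 60 of 538 (11.2%) were higher in every SCI library. Extended miR-345-5p reads overlapped between the groups, like its exact reads.

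**Figure D5:**
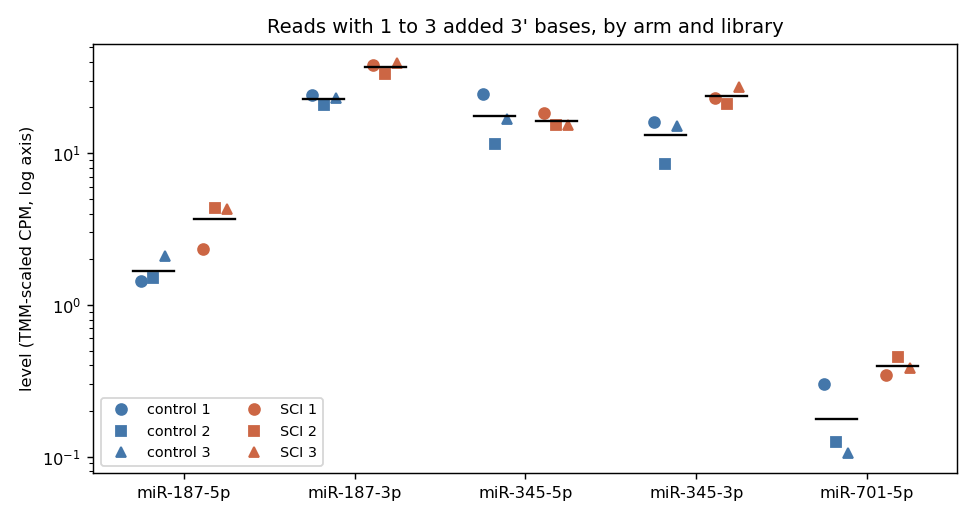
Level of reads with 1 to 3 added 3′ bases (CPM, log axis) for 5 arms, with 1 point per library and a line at each group mean. Reads of this kind for miR-345-3p lie at 8.47 to 16.05 CPM in control and 21.1 to 27.3 CPM in SCI, while those of miR-345-5p overlap between groups.

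The match of these reads to their hairpins was unique. The exact reads comprised 19 distinct sequences for miR-187-5p, 23 for miR-187-3p, 31 for miR-345-5p, 17 for miR-345-3p, 9 for miR-701-5p and 6 for miR-701-3p. Of these, 0 occurred in another annotated hairpin and 0 in another annotated transcript.

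Other arms had profiles over the 6 libraries close to those of the chosen arms, measured as the root mean square difference of log2(CPM + 0.5) centred on each arm's mean. The profiles closest to miR-187-3p were miR-184-3p (0.139), miR-106b-5p (0.143) and miR-300-5p (0.148), beside a median of 0.403 over the 416 arms compared, those with a mean of at least 10 CPM. miR-184-3p averaged 33.4 ± 6.03 CPM in control and 45.9 ± 5.02 CPM in SCI (SD, n = 3 each), with overlapping groups. Closest to miR-345-3p were miR-187-3p (0.178), miR-412-5p (0.215) and miR-300-5p (0.221), beside a median of 0.548. The chosen arms were picked as higher in every SCI library from these same levels, so likeness among them is a description. Closest to miR-701-5p were miR-345-3p (0.290), miR-181b-1-3p (0.346) and miR-3072-3p (0.355), beside a median of 0.798. miR-181b-1-3p had a fitted log2 difference of 1.42 (SE 0.29) and miR-3072-3p of 1.02 (SE 0.23). miR-187-3p and miR-701-5p were farther apart, at 0.430, which is above the median of 0.403 for miR-187-3p and below that of 0.798 for miR-701-5p.

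Tested arms encoded near Mir345, the only chosen hairpin with such neighbours, did not share a direction. Mir345 lies in a stretch of chromosome 12 with 61 other hairpins within 1 Mb, many in the imprinted Dlk1-Dio3 region. Of the 97 tested arms there, 46 were above 0 and 51 below, and the median log2 difference was -0.03, close to the -0.02 of all tested arms. Of the 97, 11 were higher in every SCI library and 9 lower, beside 62 (8.99%) and 76 (11.0%) of all 690 tested arms. The nearest hairpin, Mir342 at 178 kb, had a miR-342-3p mean of 1597 CPM in control and 2763 CPM in SCI, with a fitted log2 difference of 0.79 (SE 0.24), and 0.17 (SE 0.21) for miR-342-5p. Mir187 and Mir701 each had 1 hairpin within 1 Mb, Mir6360 and Mir7026, with 0 tested arms.

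miRNAs tied to myeloid cells, toll-like receptors or IL-10, the setting in which miR-187 is best known, were counted as a list. Of 13 listed arms 12 were tested, with 4 above 0, 8 below and 0 called by edgeR. Their median log2 difference was -0.11, beside -0.02 for all tested arms. Of the 12, 0 were higher in every SCI library, beside 8.99% of all tested arms, and 2 were lower in every one, beside 11.0%. Those 2 were miR-132-3p and miR-9-5p, both abundant in neurons as well. The 3 most abundant were miR-9-5p at -0.34 (SE 0.10), miR-132-3p at -0.44 (SE 0.13) and miR-125b-5p at 0.22 (SE 0.15).

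Summed markers of several cell types moved with the groups. The 3 neuronal markers summed to 170578 to 187189 CPM in control libraries and 148738 to 158425 CPM in SCI libraries. The 3 oligodendrocyte markers summed to 6435 to 8763 CPM against 5638 to 6415 CPM, and the 3 myeloid markers (miR-223-3p, miR-142-3p and miR-150-5p) to 1257 to 1486 CPM against 1053 to 1210 CPM. All 3 sums were lower in SCI with no overlap, but not every marker in them was. miR-128-3p and miR-9-5p were lower in every SCI library, while miR-124-3p averaged 12802 CPM in control and 16222 CPM in SCI with overlapping groups. Each oligodendrocyte marker overlapped on its own. Most of the myeloid sum was miR-150-5p, also abundant in lymphocytes, at 1060 to 1337 CPM in control and 930.2 to 1058 CPM in SCI, and miR-223-3p and miR-142-3p overlapped between groups. Sums for endothelial and mural cells, erythrocytes, epithelium and choroid plexus, muscle and liver overlapped, and no listed marker was at 0 in any library. Within these sums some single markers did not overlap. miR-143-3p (4009 to 4719 CPM in control, 2977 to 3243 CPM in SCI), miR-145a-5p and miR-200a-3p were lower in every SCI library. miR-206-3p was higher in every one, at 2.04 to 2.73 CPM in control and 3.40 to 6.45 CPM in SCI. The other markers of these sums overlapped. The part of these shifts, and of the mitochondrial tRNA fragments, in the levels of miR-187, miR-345 and miR-701 was not tested.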

How the data were processed

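Small RNA was sequenced from 6 cortex samples, 3 per group, which the labels say were collected individually. P-values measure the spread between these samples. The authors deposited raw counts per distinct read sequence (17 to 34 nt), per the file headers. RNA was extracted with the mirVana kit and libraries were made with HD adapters, per the labels' protocols. Trimming and read filters are not given in the sources used here, and the genome build is GRCm38 per the submitters' processing notes.

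Reads of 18 to 26 nt were matched here, sense and without mismatch, to GENCODE M21 hairpins, and assigned to the 5p or 3p arm by the midpoint of the read against that of the hairpin. Reads in several arms (0.1% to 0.153% of reads) were left out. Arms sharing at least 50% of reads were merged. Unmatched reads were rematched after removing 1 to 3 bases from the 3′ end, as added bases. edgeR 4.0.16 (TMM, filterByExpr with a minimum count of 10, quasi-likelihood test, Benjamini-Hochberg adjustment over 690 arms) gave log2 differences, with DESeq2 1.42.0 and limma 3.58.1 as alternatives in R 4.3.3. Folding used RNAfold 2.7.2. Sequences come from the deposited reads, GENCODE and RefSeq.

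The members and lists were chosen with earlier results of these data known. Named arms are both arms of each hairpin, isoforms holding at least 5% of an arm, the 3 closest profiles with a mean of at least 10 CPM, the arms at the edge of the condition, nearest hairpins, the 3 most abundant arms of the myeloid list and the markers. Other alternatives were filters, scalings, read definitions, a replicate block and leaving out each library. Same-numbered control and SCI samples did not deviate together (r = 0.22, -0.06 and -0.09), so they were not treated as pairs.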

Additional observations from a re-analysis of the deposited data

How the results depend on the processing

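The log2 differences of the 5 tested arms moved by less than the spread between replicates in all 83 alternatives, and only miR-345-5p changed sign, without control 1. That limit is wide, and leaving out 1 of 3 libraries can hardly reach it. For miR-187-5p it was 0.50, so a fall from 0.87 to 0.44 (SE 0.56) with the most abundant read alone stayed within it. Away from leaving out a library they ranged over 0.57 to 0.75 for miR-187-3p, 0.80 to 1.03 for miR-345-3p, 1.47 to 1.66 for miR-701-5p, 0.44 to 0.99 for miR-187-5p and -0.17 to -0.03 for miR-345-5p. Leaving out 1 library gave 0.58 to 0.71, 0.78 to 1.01, 1.38 to 1.72, 0.58 to 1.15 and -0.34 to 0.16 in the same order. The number of arms called over all tested arms did change. edgeR called 0 arms, 30 of 1421 (2.11%) without the low-count filter, and between 0 and 7 with 1 library left out, namely 2 without SCI 1 and 7 without SCI 2, miR-701-5p among the 7. DESeq2 called 11. The cause was not tested. With a replicate block edgeR called 0 arms, with 103 at an unadjusted p under 0.05, and the log2 differences were 0.63, 0.93 and 1.60 for miR-187-3p, miR-345-3p and miR-701-5p. The numbers share no more than a label, and the block changed no call. Of 135 alternative read shares 127 moved by less than the spread between replicates, and all 8 that moved counted distinct sequences in place of reads. Most of the 135 could not have moved by that measure. Leaving out 1 of 3 libraries cannot shift a difference of group means by the spread used, and removing reads found in other transcripts changed no share. The count of 127 is therefore no measure of stability. A filter at a mean of 10 CPM gave no value for miR-187-5p and miR-701-5p. Scaling by the total miRNA count moved the median of all arms by 0.12 on the log2 scale, which applies to every arm alike. Depth limits miR-701-3p (34 reads in all) and miR-701-5p in control 2 (11 reads).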
